A study of Mus musculus with 8 samples.

Results

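The gene 1300017J02Rik, also written Inhca, lies in a cluster of neighbouring genes on mouse chromosome 9 and encodes a protein of the transferrin family. In chromosome order the 8 genes described here are Ryk, Slco2a1, Rab6b, Srprb, Trf, 1300017J02Rik, Topbp1 and Cdv3. All probe sets whose platform annotation names one of them were taken, which gave 22 of 45037 probe sets, and 20 of the 22 passed the filter on low signals. Mouse total RNA had been measured on 8 Affymetrix arrays, of which the labels call 4 Ctrl and 4 Exp. On these arrays a probe set, a group of short oligonucleotides, reads 1 transcript or several. The labels give no genotype, strain, treatment, age or time for either group. One field names the tissue as trigeminal ganglion, which holds the sensory neurons of the face, and another as brain with adrenal medulla. All 8 measured genes of the sensory neuron list, Pou4f1 and Isl1 among them, were above the filter. So were 6 of the 8 measured genes of a list for chromaffin cells, the cells of the adrenal medulla. Dbh and Phox2a of that list lay under it. Of all 45037 probe sets 27022 passed the filter, so passing it does not settle which tissue was used. Nothing in the labels says that the arrays came from separate animals, so the spread between arrays may in part be technical.

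Transferrin, the product of Trf, carries ferric iron in plasma and delivers it to cells through the transferrin receptor Tfrc. In the nervous system it is known as a product of myelinating glia and of the choroid plexus. The protein of 1300017J02Rik shares the transferrin fold and is known as an inhibitor of carbonic anhydrase, an enzyme family that interconverts carbon dioxide and bicarbonate. The other genes serve other processes. Srprb encodes the beta subunit of the signal recognition particle receptor, Topbp1 a scaffold of DNA replication and checkpoint signalling, Rab6b a Golgi GTPase of neurons, Slco2a1 a prostaglandin transporter and Ryk a Wnt co-receptor. The role of Cdv3 is little known.

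The signal of 1300017J02Rik was high on all 4 Exp arrays, and so was that of the probe set annotated to both Trf and Srprb. The tested probe sets that name Srprb alone or another neighbour differed by -0.51 to 0.64 log2 units. The 2 under the filter differed by -1.003 (Slco2a1) and -0.08 (Topbp1). 1300017J02Rik was chosen by its difference between Exp and Ctrl, and the probe set of Trf and Srprb was named in the choice of members. The differences of both are therefore given as descriptions, with no p-value, and nothing is read from whether either was called.

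1300017J02Rik is read by probe set 1424722_at alone. Its deposited linear signals were 297, 244, 319 and 312 on Ctrl 1 to Ctrl 4 and 1698, 1116, 2103 and 2077 on Exp 1 to Exp 4. Every Ctrl signal lay under the filter value of about 333 that the means of probe sets had to reach, so the probe set passed through its Exp signals. The groups did not overlap, as was so with Exp higher for 1.06% of all tested probe sets, and Exp 2 was the lowest of the Exp arrays. On the normalised log2(signal + 16) scale, used for all levels and differences below, it stood at 8.23, 8.16, 8.44 and 8.37 in Ctrl and 10.69, 10.11, 11.10 and 11.03 in Exp. The group means were 8.30 ± 0.13 and 10.73 ± 0.45 (SD, n = 4 each). The difference was 2.43 log2 units (SE 0.21), or 5.39-fold, and the ratio of the deposited group means was 5.97. The gap between the highest Ctrl and the lowest Exp array was 1.66 log2 units.

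Trf has no probe set of its own in the annotation. The 1 probe set that names it also names Srprb, and its signal cannot be assigned to either gene from the annotation. Its linear signals were 247, 336, 593 and 492 on Ctrl 1 to Ctrl 4 and 1478, 1231, 4391 and 4352 on Exp 1 to Exp 4. The groups did not overlap here either. The Exp arrays fell into a lower pair, Exp 1 and Exp 2, and a higher pair, Exp 3 and Exp 4, and Ctrl 3 and Ctrl 4 were the highest of the Ctrl arrays. The means were 8.72 ± 0.57 in Ctrl and 11.25 ± 1.02 in Exp (SD, n = 4 each), a difference of 2.53 log2 units (SE 0.49) or 5.78-fold, with a gap of 0.96 between the groups.

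**Figure D1:**
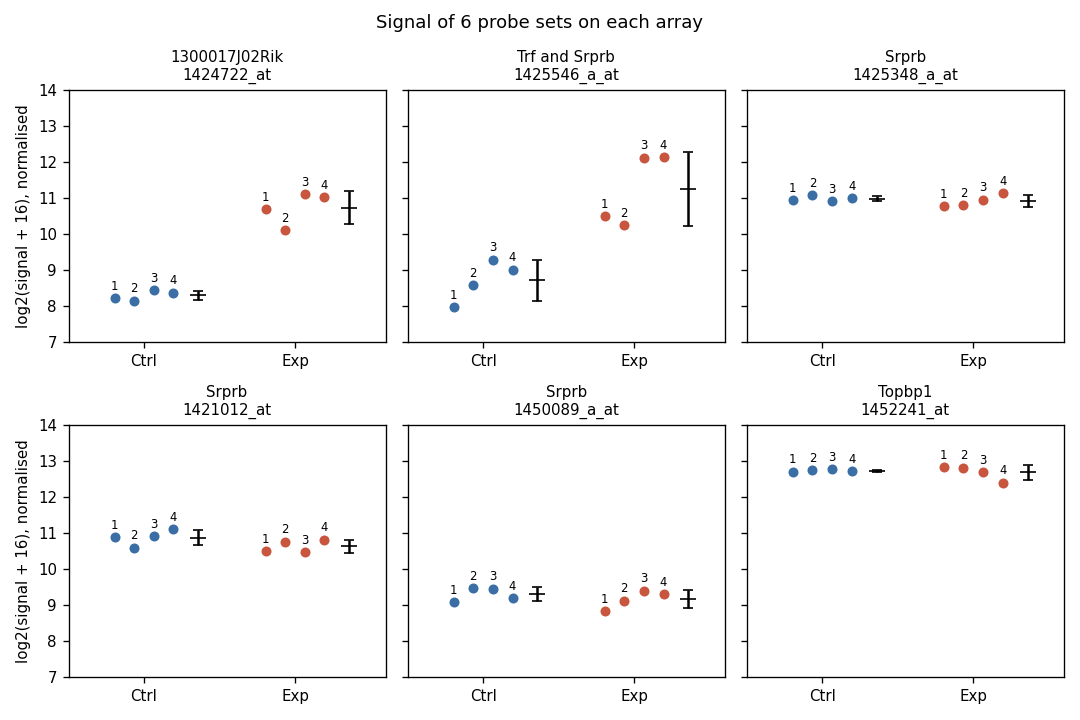
Normalised log2(signal + 16) of 6 probe sets on the 4 Ctrl and 4 Exp arrays, with the array number above each point and the group mean ± SD as a black bar. Both upper left panels, 1300017J02Rik and the probe set of Trf and Srprb, have all 4 Exp arrays above all 4 Ctrl arrays, while the groups overlap in the 3 probe sets of Srprb alone and in Topbp1.

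Of 27022 probe sets tested over the whole table, these 2 had the largest differences toward Exp, with that of Trf and Srprb in rank 1 and 1300017J02Rik in rank 2. A difference of 2 log2 units or more toward Exp was seen in 4 probe sets (0.0148% of those tested), and in 2 of the 4 (0.0074%), the pair described here, the groups did not overlap. The remaining 2 were those of Pi4k2b, a lipid kinase, at 2.15 (SE 0.80), and Pnpt1, a mitochondrial RNA-processing enzyme, at 2.10 (SE 0.84). These ranks come from the values that chose the members and are read no further. Over the whole table limma called 1 probe set at a 5% false discovery rate (0.0037% of those tested). That probe set is the one of 1300017J02Rik, whose values had chosen it and which reached the filter through Exp, so nothing is read from the call. In fits that left out 1 array its difference was 2.32 (without Exp 3) to 2.64 (without Exp 2).

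The probe sets of 1300017J02Rik and of Trf and Srprb also ran in a like order within the groups. After the group means were subtracted, their values over the 8 arrays had a Pearson r of 0.859 and a Spearman rho of 0.881, with no p given. That r was higher than for 98.8% of the tested probe sets with 1 gene name. The 20 other neighbour probe sets had r with 1300017J02Rik from -0.60 (Topbp1, 1452241_at) to 0.60 (Ryk, 1447400_at). All of these points share the same arrays and their scaling. The signal of Trf and Srprb stood 1.02 and 1.10 log2 units above that of 1300017J02Rik on Exp 3 and Exp 4, and -0.20 and 0.14 from it on Exp 1 and Exp 2. In Ctrl this distance was -0.25, 0.43, 0.84 and 0.64 on Ctrl 1 to Ctrl 4. Probe sets differ in how strongly they bind, so only the change of this distance from array to array can be read.

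**Figure D2:**
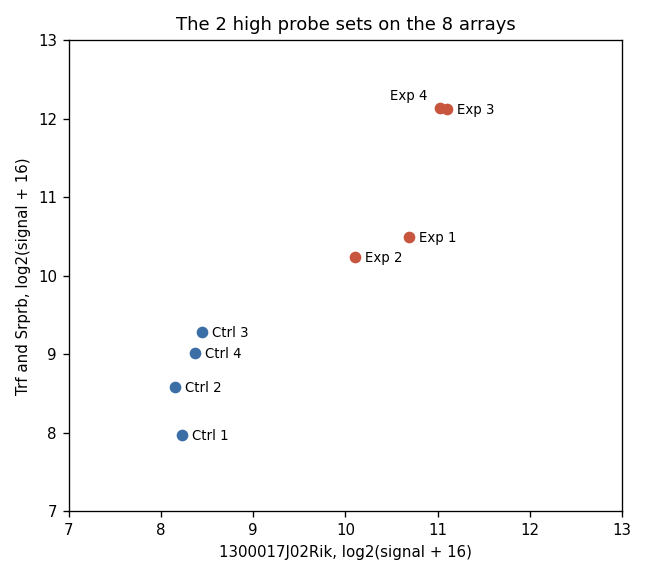
Signal of the probe set of Trf and Srprb (vertical, log2(signal + 16)) against that of 1300017J02Rik (horizontal, same scale), 1 point for each array, blue for Ctrl and red for Exp. The 4 Ctrl arrays lie at the lower left and the 4 Exp arrays at the upper right, with Exp 3 and Exp 4 nearly on top of each other.

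Levels of Y-linked genes also varied between the arrays. The mean log2 level of Eif2s3y, Kdm5d and Uty was at most 8.06 on Ctrl 3, Exp 1 and Exp 4 and at least 11.57 on the other 5 arrays. Xist, transcribed from the inactive X chromosome, went the other way, at 15.14 to 15.63 on Ctrl 3, Exp 1 and Exp 4 and 9.47 to 10.77 on the other 5. In neither group did all arrays therefore come from 1 RNA source. With the Y-linked level as a covariate the difference of 1300017J02Rik was 2.39 (SE 0.21), and limma called 0 probe sets over the whole table.

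Srprb, the annotated partner of Trf on the shared probe set and the gene beyond Trf, has 3 probe sets that name it alone. The brightest, 1425348_a_at, read 10.94, 11.08, 10.91 and 11.00 in Ctrl and 10.77, 10.80, 10.95 and 11.13 in Exp. The groups overlapped, and the difference was -0.07 (SE 0.11, limma adjusted p = 0.999, 95% confidence interval -0.31 to 0.18). Probe set 1421012_at differed by -0.24 (SE 0.14) and 1450089_a_at by -0.14 (SE 0.15), and both intervals included 0. The 2.53 of the shared probe set lay above all 3, and whether its signal comes from Trf or Srprb was not tested.

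Topbp1, on the other side of 1300017J02Rik, is transcribed away from it, since the RefSeq table puts 1300017J02Rik on the minus strand and Topbp1 on the plus strand. Its probe set 1452241_at read 12.70, 12.74, 12.76 and 12.71 in Ctrl and 12.82, 12.81, 12.68 and 12.39 in Exp. Exp 4 was the lowest of all 8 arrays and Exp 1 the highest, and the difference was -0.05 (SE 0.11, limma adjusted p = 0.999). A second probe set, 1458480_at, lay under the filter and differed by -0.08 (SE 0.18).

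The sequences at the starts of 1300017J02Rik and of the genes next to it with a start region in the table are shown so that their base composition can be compared. RefSeq start regions, 250 bases before to 50 after the start on assembly GRCm38.p6, were matched for 7 of the 8 genes. Trf, named on the probe set with the largest difference, was not matched, so nothing below bears on it. Those of 1300017J02Rik (chr9:103288248-103288547, minus strand), Srprb (chr9:103202016-103202315, minus strand) and Topbp1 (chr9:103305077-103305376, plus strand) are printed 5′ to 3′ with CG dinucleotides, the sites of DNA methylation, in capitals.
1300017J02Rik: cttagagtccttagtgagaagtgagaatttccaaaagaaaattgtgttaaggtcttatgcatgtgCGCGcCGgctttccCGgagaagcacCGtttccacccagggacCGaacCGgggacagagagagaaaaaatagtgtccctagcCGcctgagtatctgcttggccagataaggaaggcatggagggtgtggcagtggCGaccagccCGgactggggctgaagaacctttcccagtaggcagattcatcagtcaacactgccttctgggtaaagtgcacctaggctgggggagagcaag
Srprb: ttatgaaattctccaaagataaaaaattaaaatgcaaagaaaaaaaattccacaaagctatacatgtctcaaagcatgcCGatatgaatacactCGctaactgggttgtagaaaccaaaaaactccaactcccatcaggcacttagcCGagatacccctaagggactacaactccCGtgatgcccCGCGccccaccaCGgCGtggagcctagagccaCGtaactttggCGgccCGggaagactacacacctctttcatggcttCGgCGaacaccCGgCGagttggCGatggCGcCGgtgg
Topbp1: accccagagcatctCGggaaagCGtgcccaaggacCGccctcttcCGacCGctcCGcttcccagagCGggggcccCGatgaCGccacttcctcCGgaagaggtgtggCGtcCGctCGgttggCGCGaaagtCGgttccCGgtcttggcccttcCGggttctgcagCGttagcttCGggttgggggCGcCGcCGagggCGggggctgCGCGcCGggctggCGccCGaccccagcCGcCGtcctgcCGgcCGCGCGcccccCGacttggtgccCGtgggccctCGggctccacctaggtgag

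The window of 1300017J02Rik held 10 CG dinucleotides, that of Srprb 18 and that of Topbp1 38. Among 32841 start regions of the same length in the table the median was 7, and 56.5% held fewer than 1300017J02Rik. Slco2a1 had 18, Ryk and Rab6b 42 each, and the Cdv3 start regions 28 and 47, so 1300017J02Rik had the fewest of the 7 genes matched, Trf not among them. The ratio of CG dinucleotides to the number that base composition gives was 0.474 in 1300017J02Rik and 0.599 to 1.27 in the other 6 genes. On either strand, the letters AGATAA, known from sites of GATA factors, were found 1 time in the windows of 1300017J02Rik and of Srprb and in none of the others, and 11.2% of all start regions hold them. TATAAA (13.6% of all start regions) was found in Ryk and Slco2a1, and CCAAT (37.4%) in Cdv3. These matches describe letters in the windows and no binding was measured.

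The remaining neighbours gave no probe set past the threshold. Over all neighbours, 18 tested probe sets name 1 gene of the list other than 1300017J02Rik, and 0 passed limma's 5% false discovery rate, against 0.0037% of all tested probe sets. With no adjustment 0 were under 0.05 either, against 4.69% of all tested probe sets, the smallest p being 0.0512. The Slco2a1 probe set 1450032_at, under the filter and not among the 18, had an unadjusted limma p of 0.025. In 0 of the 18 did the groups stand apart, against 2.34% of all tested probe sets. Of the 18, 4 were higher and 14 lower in Exp, with a median difference of -0.07. Over all tested probe sets 48.4% were higher and the median was -0.01. The 18 come from 6 genes, so their directions are not independent. In 16 of the 18 the 95% confidence interval lay within 1 log2 unit of 0 on both sides, so a doubling lay outside it.

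Cdv3, beyond Topbp1, showed the largest positive difference among these 18, in 1 of its 4 probe sets. Probe set 1440332_at read 10.81, 9.64, 11.15 and 10.62 in Ctrl and 11.43, 11.15, 11.04 and 11.16 in Exp. Ctrl 2 was low and the groups overlapped through Ctrl 3, and the difference was 0.64 (SE 0.28, limma adjusted p = 0.999, interval -0.00 to 1.29). The other 3 Cdv3 probe sets differed by -0.09 (SE 0.10, 1415704_a_at, the brightest), -0.08 (SE 0.14) and -0.10 (SE 0.18).

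Rab6b had the brightest probe set of the group, 1434914_at, at 15.90 ± 0.19 in Ctrl and 15.91 ± 0.11 in Exp (SD, n = 4 each). Its difference was 0.01 (SE 0.12), and that of its other 3 probe sets ran from -0.18 (SE 0.15) to -0.01 (SE 0.15). Ryk differed by 0.20 (SE 0.11) in 1426388_s_at, by -0.02 (SE 0.15) in 1447400_at and by -0.03 (SE 0.10) in 1451789_a_at. For both genes the Ctrl and Exp arrays overlapped in every probe set.

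Slco2a1 was the neighbour whose probe sets varied most. The brightest, 1420913_at, differed by -0.19 (SE 0.16), 1444242_at by 0.03 (SE 0.23) and 1420914_at by -0.51 (SE 0.31). In 1420914_at Exp 3, at 7.63, and Exp 2, at 8.01, were the lowest arrays, while Exp 1 stood at 8.98 within the Ctrl range of 8.20 to 9.15. Probe set 1450032_at lay under the filter, with linear signals of 200 to 341 in Ctrl and 71 to 250 in Exp, and differed by -1.003 (SE 0.36), with Exp 2 and Exp 3 again lowest and the groups overlapping. None of the tested Slco2a1 probe sets passed (limma adjusted p = 0.999 for each).

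**Figure D3:**
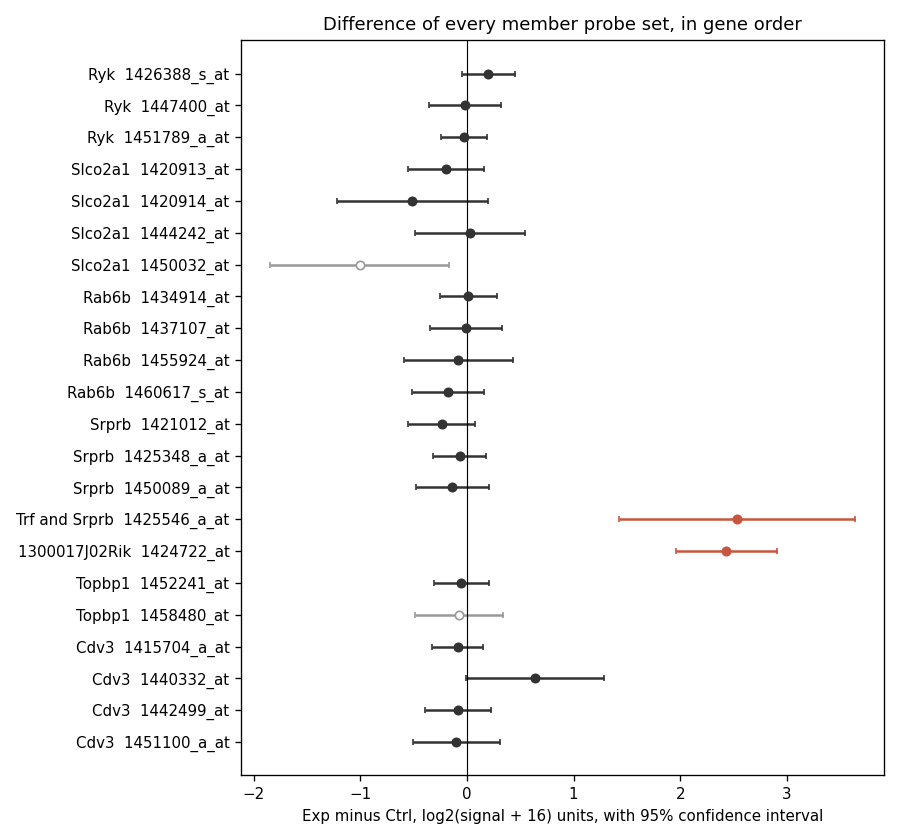
Exp minus Ctrl in log2(signal + 16) units for the 22 probe sets in chromosome order of their genes, with 95% confidence intervals from limma, red for the pair of high probe sets and open circles for the 2 under the filter. The red points lie at 2.53 and 2.43, and the intervals of all 18 tested neighbour probe sets include 0. That of Slco2a1 1450032_at, an open circle, does not.

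A wider window was read in the same way, taking 15 protein-coding genes on either side of 1300017J02Rik in the RefSeq gene table. Of the 23 genes in it that are not members, 20 were on the array and 18 had a tested probe set, with each gene read by its brightest. By limma, 0 of the 18 passed, and 2 had an unadjusted p under 0.05, as did 4.69% of all tested probe sets. In 0 of the 18 did the groups stand apart, against 2.34% of all tested, 9 were higher and 9 lower, and the median difference was -0.01. The 4 genes with the smallest p were Ephb1, an ephrin receptor, at -0.60 (SE 0.19), Ky, a muscle protein gene, at -0.44 (SE 0.19), Nudt16, a nucleotide hydrolase, at -0.23 (SE 0.12), and Cep63, a centrosome protein gene, at -0.24 (SE 0.12), all at an adjusted p of 0.999. Ephb1, Ky and Cep63 lie close together on the Ryk side of the window, and each overlapped between the groups.

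**Figure D4:**
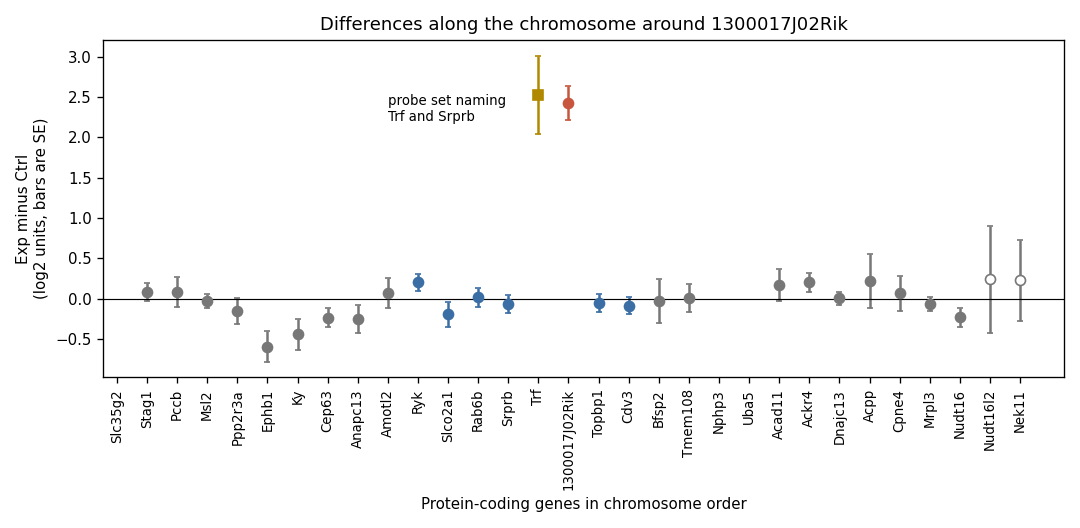
Exp minus Ctrl (log2 units, bars are SE) for the brightest probe set of each gene, 15 protein-coding genes to either side of 1300017J02Rik in chromosome order; blue points are members, gray ones other genes, open circles genes under the filter, and the square the probe set of Trf and Srprb, placed at Trf. The square and the red point of 1300017J02Rik lie above 2, and the other genes lie between -0.60 and 0.24.

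Genes that handle iron together with transferrin gave no call. Of 35 listed genes 34 were on the array and 27 had a tested probe set, of which 11 were higher and 16 lower in Exp, with a median of -0.01, as over all probe sets. By limma 0 passed, and 1 of the 27 had an unadjusted p under 0.05, beside 4.69% of all tested probe sets. Tfrc, the transferrin receptor, read 13.16, 13.85, 14.04 and 14.01 in Ctrl and 13.59, 12.93, 14.03 and 13.91 in Exp, a difference of -0.15 (SE 0.27). Fth1, the ferritin heavy chain that stores iron, differed by -0.05 (SE 0.09), and Cp, the ferroxidase ceruloplasmin, by 0.15 (SE 0.40). The 4 with the smallest p were Cybrd1, a ferric reductase, at -0.34 (SE 0.13), the iron hormone gene Hamp at 0.28 (SE 0.13), the iron exporter Slc40a1 at -0.45 (SE 0.22) and Fbxl5, an iron-sensing ubiquitin ligase subunit, at -0.21 (SE 0.13). Of the 27, Cybrd1 alone had groups that stood apart (2.34% of all tested probe sets did), with Ctrl at 9.63 to 9.82 and Exp at 9.05 to 9.58, and its adjusted p was 0.999.

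The 1300017J02Rik protein is known as an inhibitor of carbonic anhydrase, and genes of that family were listed by name, whether or not it inhibits each. Of 16 such genes 9 were tested, with 3 higher and 6 lower and a median of -0.18. Over all tested probe sets 48.4% were higher and the median was -0.01. By limma 0 passed, and 1 of the 9 had an unadjusted p under 0.05, beside 4.69% of all tested probe sets. That was Car3, the isoform of muscle and fat, which read 12.10, 12.71, 12.48 and 12.05 in Ctrl and 11.00, 12.27, 10.53 and 9.39 in Exp. Exp 2 lay within the Ctrl range and Exp 1, Exp 3 and Exp 4 below it, and the difference was -1.54 (SE 0.51, limma adjusted p = 0.999). The Exp arrays with low Car3 are those with the higher 1300017J02Rik signals, a match over 4 arrays that was seen after the values were known. Car2, the isoform of glia and erythroid cells, differed by -0.25 (SE 0.12), Car10 by -0.19 (SE 0.25) and Car11 by -0.18 (SE 0.17).

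Cells known to make transferrin, and other cell types such as muscle and epithelium, were read through marker lists. In whole tissue, fewer cells of a type and less RNA per cell cannot be told apart. By limma 0 genes of any marker list passed, and the genes named here were chosen after their values were seen. Of 12 Schwann cell and satellite glia markers 9 were on the array and 8 were tested. Of these, 7 were lower in Exp and 1 higher, with a median of -0.17, beside 48.4% higher and a median of -0.01 over all tested probe sets. Their groups overlapped in all 8, where 2.34% of all tested probe sets had groups apart. An unadjusted p under 0.05, found in 4.69% of all tested probe sets, was seen in 2 of the 8. Those were Egr2, a transcription factor of myelination, at -2.66 (SE 0.97) and Sox10, a transcription factor of glia, at -0.33 (SE 0.14). Egr2 read 13.23, 9.15, 12.48 and 12.37 in Ctrl and 9.02, 9.16, 7.36 and 11.04 in Exp, so Ctrl 2 was as low as most Exp arrays. The summed linear signal of the list was 152216 to 184988 in Ctrl and 146630 to 173142 in Exp. Such a sum weighs the brightest gene most, here Fabp7, at 16.58 in Ctrl and 16.60 in Exp. The mean log2 deviation of the 9 genes from their means over the 8 arrays was 0.48, -0.16, 0.27 and 0.26 on Ctrl 1 to Ctrl 4. On Exp 1 to Exp 4 it was -0.27, -0.18, -0.52 and 0.11.

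Skeletal muscle markers were mostly higher in Exp, in 8 of 9 tested, with a median of 0.70 and overlapping groups in all 9. Over all tested probe sets 48.4% were higher and 2.34% had groups apart. An unadjusted p under 0.05, found in 4.69% of all tested probe sets, was seen in 3 of the 9. Those were the myogenic factor Myod1 at 0.39 (SE 0.15), the myosin Myh8 at 1.40 (SE 0.60) and the actin cross-linker Actn2 at 1.32 (SE 0.58). The sums of the muscle list were 5321 to 9332 in Ctrl and 4018 to 56140 in Exp. The list mean stood highest on Exp 3, at 1.70 above the mean of the 8 arrays, and lowest on Exp 4, at -0.82. Epithelial markers were higher in 5 of 6 tested, with a median of 0.30, and 2 of the 6 had an unadjusted p under 0.05. Groups stood apart in 1 of the 6, Grhl2, at 0.50 (SE 0.12, limma adjusted p = 0.937). Endothelial markers were higher in 2 of 5 tested, macrophage in 2 of 6, erythroid in 3 of 6, chromaffin in 1 of 6 and sensory neuron in 5 of 8. Of these 5 lists, groups stood apart in the endothelial Cdh5, at 0.63 (SE 0.10, limma adjusted p = 0.445). They did so too in the macrophage list's Ptprc, at -0.34 (SE 0.12, limma adjusted p = 0.999).

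Of 10 oligodendrocyte and astrocyte markers 6 lay under the filter, among them Mog, Mag, Olig1 and Olig2, and the sum was 8755 to 10615 in Ctrl and 8860 to 10366 in Exp. For 8 choroid plexus markers, 3 of them under the filter, the sum was 2447 to 3141 in Ctrl and 2953 to 3924 in Exp. For 10 measured plasma protein genes of the liver, 5 of them under the filter, it was 2721 to 11753 in Ctrl and 2203 to 29332 in Exp, with Exp 1 highest. The sums of the glial, choroid plexus, plasma protein and muscle lists overlapped between the groups. Because a sum weighs its brightest genes most, this overlap does not show that the amounts of these cells were alike. The part of these cell types in the differences of 1300017J02Rik and of the probe set of Trf and Srprb was not tested.

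The genes whose deviations from the group means were most like those of 1300017J02Rik over the 8 arrays, of 22464 probe sets with 1 gene name, were Cnpy2 (r = 0.983), Sc5d (0.981, probe set 1451457_at), Mphosph9 (0.981), Abcd2 (0.980) and Nt5c2 (0.978). For the probe set of Trf and Srprb they were Cartpt (0.980), Gng3 (0.978), Ypel1 (0.978), Plcb1 (0.975) and Zfhx4 (0.974). None of these 10 genes had groups that stood apart. By Spearman's rho 3 of the 5 genes recurred for 1300017J02Rik and 0 of the 5 for Trf and Srprb.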

How the data were processed

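Signals of 22 probe sets naming 8 neighbouring genes were read on 8 Affymetrix arrays. The deposited values are intensities on a linear scale, 1 per probe set and array. The method behind them is not stated in the sources used here. Every deposited array had a mean of 2500.01 or 2500.02 without the lowest and highest 2%, a property that global scaling gives and that removes differences in total signal. Medians ran from 478 to 553. Precision is limited by the small number of arrays, 4 in each group.

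Values were taken as log2(signal + 16) and quantile normalised over 45037 probe sets, after 64 control probe sets were left out. Probe sets with a mean under the 40th percentile were not tested, which left 27022. Exp and Ctrl were compared with limma 3.58.1 in R 4.3.3, two-sided, with p-values adjusted after Benjamini and Hochberg over the whole tested table; the fit was tested on simulated data. The pseudocount understates the change of low signals. Differences of probe sets under the filter come from a fit without it.

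Gene names come from the platform's annotation, updated by Entrez identifier through the RefSeq table of GRCm38.p6. Of the probe sets, 34945 carried 1 name, 932 several and 9160 none, and the probe set of Trf and Srprb is given under both of its names. Where a gene had several probe sets, lists used the brightest. Members, lists and tests were chosen with earlier results of these data known. Named from lists were the 4 tested genes with the smallest p, with Tfrc, Fth1, Car2 and Cp; likeness named the 5 highest r. Ddx3y was not used here in the Y-linked mean. The main fit did not pair the arrays by the numbers 1 to 4 of the titles. Correlations of same-numbered deviations over the tested probe sets ran from -0.12 to 0.05, which cannot show whether the arrays were paired. With the number as a block, the SE was 0.16 for 1300017J02Rik and 0.25 for the probe set of Trf and Srprb. Figures were drawn with matplotlib 3.10.9.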

Additional observations from a re-analysis of the deposited data

Results flagged for a closer look

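In each group of 4 arrays, the member probe sets and the named list genes were examined for a value set apart from the other 3 by Dixon's criterion. Of 74 groups, 4 held such a value, against about 3.7 by chance. On Ctrl 2, Rab6b (1434914_at) stood at 16.18, against 15.79 to 15.83 on the other Ctrl arrays. On Ctrl 1, another Rab6b probe set (1460617_s_at) stood at 12.27, against 12.78 to 12.86, and Cdv3 (1451100_a_at) at 9.19, against 9.61 to 9.64. On Ctrl 4, Slc40a1 stood at 12.33, against 11.51 to 11.65. None of the 4 is a value of 1300017J02Rik or of the probe set of Trf and Srprb.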

How the results depend on the processing

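The difference of 1300017J02Rik stayed positive under all 20 alternatives; it was 1.81 with the largest of the 4 pseudocounts, which lay close to its Ctrl signals, and 2.58 as the log2 ratio of deposited group means, an alternative added after the data were seen. The 1 called probe set over the whole table is that of 1300017J02Rik itself and so no support for it. The count became 0 without a filter and with a filter at the 60th percentile, which removed 1300017J02Rik. It also became 0 with the replicate number as a block (difference 2.43) and with the Y-linked covariate. In the fits that left out 1 array, it was 1 without Exp 2 and 0 without any other array. No neighbour, iron, carbonic anhydrase or wider-window probe set was called by limma in any of the 19 refits. The probe set of Trf and Srprb had a difference of 2.02 to 2.87 over them. Of the 20 neighbour probe sets, 11 kept their sign in all 19 refits and 9, with differences near 0, did not. With 4 arrays a group and low Ctrl signals, the fold of 1300017J02Rik depends on the background, which the files do not give.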
